A study of Mus musculus with 2 samples.

Results

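A set of 10 nuclear genes of mitochondrial biogenesis and dynamics were followed in the embryonic mouse heart: Ppargc1a, Ppargc1b, Nrf1, Tfam, Polg, Mfn1, Mfn2, Opa1, Dnm1l and Fis1. They were chosen by name for their roles and were found by gene identifier through the GENCODE annotation, which gave 10 of the 43346 mouse genes in the deposited tables. The hearts came from B6NCrl embryos at embryonic day 11.5, with males and females pooled, and their total RNA was sequenced in 2 libraries of a single group. Replicate 1 was made from a pool of 109 embryos, and the labels give no number for the pool of replicate 2. Both pools carry the same donor identifier but are recorded as separate biosamples, and each library started from 10 ng of RNA with a size range above 200, for which no unit is given. No treatment, genotype or time was contrasted, so the data give the level of each gene, the order of the levels and the difference between the pools.

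Mitochondria are built by adding protein, lipid and DNA to existing organelles, and their number and shape are set by fusion and fission. In the heart, the PGC-1 coactivators work with nuclear factors such as NRF1 to raise the transcription of nuclear genes for mitochondrial proteins. Among these is Tfam, whose protein packages mitochondrial DNA and acts as a factor in its transcription. The mitofusins and OPA1 join the outer and inner membranes, DRP1 (the Dnm1l protein) constricts and divides the organelle, and loss of both mitofusins in the mouse embryonic heart is known to arrest its development.

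All 10 genes were detected, here meaning at a TPM (transcript abundance corrected for length and library size) of 1 or more in each of the libraries. Over all nuclear protein-coding genes the detected share was 56.4%. The median of the 10 genes was 36.6 TPM in replicate 1 and 45.3 TPM in replicate 2, or 40.9 ± 6.16 TPM (mean ± SD, n = 2, as for all such values). The median of the 12105 detected nuclear protein-coding genes was 15.9 ± 0.403 TPM. Levels spread 20.2-fold, from 208 ± 2.95 TPM for the fission adaptor Fis1 to 10.3 ± 0.445 TPM for the coactivator Ppargc1b. Between these ends, 7 of the genes lay from 30.3 to 57.9 TPM, and Polg stood at 15.9 TPM.

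**Figure D1:**
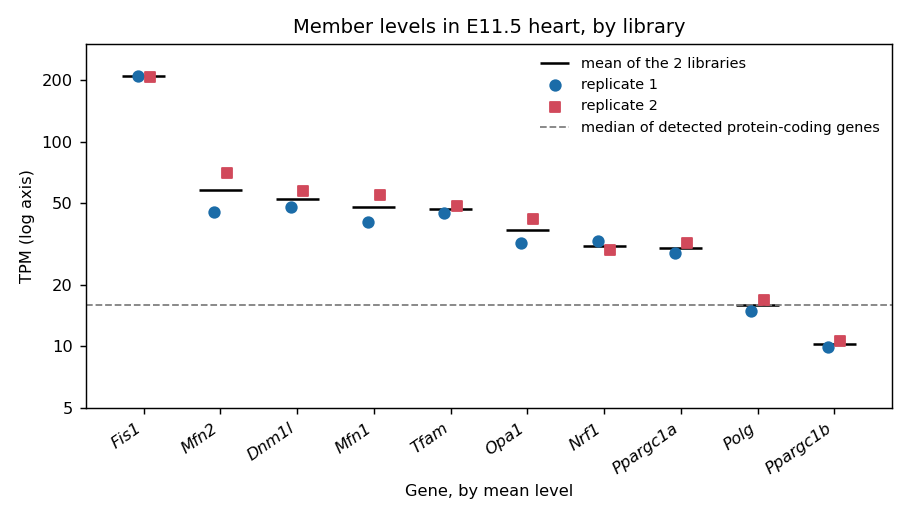
Level of each gene in TPM on a log axis, with a circle for replicate 1, a square for replicate 2, a black bar for their mean and a dashed line at the median of detected protein-coding genes. Fis1 lies above 200 TPM in both libraries, Polg lies beside the dashed line at 15.9 TPM, and Ppargc1b is the only gene of the 10 with both libraries below it.

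The order of the levels was set against the spread between libraries by asking whether both libraries of a gene lay above both libraries of another. This held for 35 of the 45 pairs of the 10 genes (77.8%), against 94.1% of all pairs of detected protein-coding genes. Of the 9 pairs of neighbours in the order, 4 were apart: Fis1 above Mfn2, Tfam above Opa1, Ppargc1a above Polg, and Polg above Ppargc1b. By this rule, Mfn2, Dnm1l, Mfn1 and Tfam were therefore not separable step by step, nor were Opa1, Nrf1 and Ppargc1a. The rule sets levels against each other across libraries and does not use the ratio of 2 genes within a library. No p accompanies the levels, because sign flips over 2 libraries cannot give an exact p below 0.5. As the tissue was measured in bulk, fewer cells of a type and less RNA per cell cannot be told apart.

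The libraries held 34447169 and 25261719 expected counts (estimated reads) in mouse genes, of which the 10 genes took 31591 and 27467. Among markers of the tissue, all 10 cardiomyocyte genes were detected, with a summed level of 25917 TPM in replicate 1 and 27685 TPM in replicate 2. Red blood cell genes summed to 70184 and 58861 TPM. Liver genes, all 5 detected, summed to 145 TPM in replicate 1 and 25.4 TPM in replicate 2. Only 3 of 5 skeletal muscle genes were detected, with sums of 22.8 and 24.6 TPM.

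The transcriptional regulators of the group are the coactivators Ppargc1a and Ppargc1b and the DNA-binding factor Nrf1. Ppargc1a (ENSMUSG00000029167.9, minus strand of chromosome 5, 51454250 to 51567726 on mm10), which encodes PGC-1alpha, had 28.5 TPM in replicate 1 and 32.1 TPM in replicate 2. Ppargc1b (ENSMUSG00000033871.10, minus strand of chromosome 18, 61298136 to 61400431), which encodes the related coactivator PGC-1beta, had 9.98 and 10.6 TPM. Ppargc1a thus stood 2.94-fold above Ppargc1b in TPM (log2 ratio 1.56 ± 0.0589), and its lower library was above the higher library of Ppargc1b. Nrf1 (ENSMUSG00000058440.10, plus strand of chromosome 6, 30047988 to 30153458), the nuclear respiratory factor, had 32.6 TPM in replicate 1 and 29.4 TPM in replicate 2. Its libraries overlapped those of Ppargc1a, with a log2 ratio of Nrf1 to Ppargc1a of 0.03 ± 0.226.

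Most of the TPM of Ppargc1a was divided between a full-length transcript and one whose coding sequence is truncated in the later annotation. Ppargc1a-201, annotated with 13 exons as a target of nonsense-mediated decay, held 57.7% of the gene's TPM in replicate 1 and 52.0% in replicate 2. Ppargc1a-203, the full-length coding transcript, held 39.0% and 43.4%. The annotated difference between them inside the coding region is a stretch of 31 bases, kept in Ppargc1a-201 and removed in Ppargc1a-203, on the minus strand at chr5:51490091-51490121 (mm10). It is shown because it carries an in-frame stop codon, given in capitals, which leaves 270 codons where Ppargc1a-203 has 797.

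Ppargc1a-201 insert: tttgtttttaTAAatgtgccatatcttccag

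An isoform ending in this way is known as NT-PGC-1alpha, which keeps the activation domain and lacks the C-terminal part. As background, the annotated class of the transcript does not show whether it was degraded or translated. By expected counts, which are not corrected for length, the order was the opposite. Ppargc1a-201 took 37.4% and 32.6% of the gene's counts, and Ppargc1a-203 took 62.0% and 66.7%. Ppargc1a-201 is 2698 bases long in the deposited tables and 3041 bases in the later annotation from which the stretch was read, while Ppargc1a-203 has 6464 bases in both. When the transcripts classed as coding in the later annotation were summed, Ppargc1a came to 12.7 ± 2.26 TPM, against 30.3 ± 2.55 TPM for the whole gene. On that basis Ppargc1b had 9.87 ± 0.226 TPM, and Ppargc1a stood 1.28-fold above it in place of 2.94-fold (log2 ratio 0.35 ± 0.225), still with no overlap between the libraries. Nrf1 then stood 2.33-fold above Ppargc1a (log2 ratio 1.22 ± 0.308), where the whole genes overlapped.

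Ppargc1b, with 3 listed transcripts, and Nrf1, with 21, differed in how their TPM was divided. Ppargc1b-202 held 97.3% of the TPM of Ppargc1b in replicate 1 and 94.6% in replicate 2. No transcript of Nrf1 held over 40% of its TPM in either library, although by counts Nrf1-211 took 38.2% and 51.5%. Nrf1-211 led with 25.0% in replicate 1 and 40.0% in replicate 2, and Nrf1-210, with the same coding length of 1509 bases, had 22.2% and 21.96%. Nrf1-202 moved from 15.7% in replicate 1 to a listed 0 in replicate 2, while Nrf1-207, which has the same coding length of 1602 bases, stood at 5.00% and 18.3%. Nrf1-214, a model of 5 exons, had 14.3% and 13.2%.

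The maintenance of mitochondrial DNA was represented by Tfam and Polg. Tfam (ENSMUSG00000003923.10, minus strand of chromosome 10, 71225464 to 71238280), the transcription factor and packaging protein of the mitochondrial genome, had 44.99 TPM in replicate 1 and 48.7 TPM in replicate 2. Polg (ENSMUSG00000039176.13, minus strand of chromosome 7, 79446231 to 79466362), the catalytic subunit of the mitochondrial DNA polymerase, had 14.9 and 16.9 TPM. Tfam was 2.94-fold above Polg (log2 ratio of TPM 1.56 ± 0.0511), with no overlap between the libraries. Polg in turn was 2.59-fold above Polg2, its accessory subunit, which had 6.82 and 5.51 TPM. Tfam exceeded Polrmt, the mitochondrial RNA polymerase it works with, 2.72-fold (Polrmt had 17.6 and 16.8 TPM).

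Tfam did not keep the same leading transcript in both libraries. Tfam-201 held 31.5% of the gene's TPM in replicate 1 and 31.4% in replicate 2, whereas Tfam-202, a model of 779 bases, held 24.7% and 46.8%. By counts, Tfam-201 led in both, with 77.4% and 75.2%, its model being 4167 bases long. Tfam-204, a processed transcript without a coding sequence, had 23.3% and 13.6% of TPM, and Tfam-205 had 17.6% and 6.81%. In Polg, the coding Polg-201 led with 51.8% and 58.4% of TPM, and Polg-214, a retained-intron transcript of 8 exons, had 21% and 26.7%. Coding transcripts of Polg alone summed to 8.49 TPM in replicate 1 and 9.88 TPM in replicate 2. Polg-201 has 5277 bases in the tables and 7837 in the later annotation. In that annotation the gene shares 4034 bases with Fanci on the other strand, which had 990 and 881 counts. Since the strand setting is not given in the sources used here, reads of Polg and Fanci in the shared stretch cannot be told apart.

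The fusion genes lay close to one another. Mfn2 (ENSMUSG00000029020.9, minus strand of chromosome 4, 147873599 to 147904704), a mitofusin that also tethers mitochondria to the endoplasmic reticulum, had 45.4 TPM in replicate 1 and 70.5 TPM in replicate 2. Mfn1 (ENSMUSG00000027668.9, plus strand of chromosome 3, 32529465 to 32579239), the other mitofusin, had 40.5 and 55.1 TPM. Opa1 (ENSMUSG00000038084.12, plus strand of chromosome 16, 29579334 to 29654884), the GTPase of inner membrane fusion and cristae shape, had 31.9 and 41.9 TPM. All of these were higher in replicate 2. The mitofusins overlapped (log2 ratio of Mfn1 to Mfn2 in TPM -0.26 ± 0.136), Opa1 overlapped Mfn1 (-0.37 ± 0.034), and both libraries of Opa1 lay below both of Mfn2 (-0.63 ± 0.17).

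The level of Mfn1 rested in part on very short transcripts. Mfn1-201 and Mfn1-202, which share a coding length of 2223 bases, held 37.6% and 18.7% of the TPM in replicate 1 and 32.8% and 19.5% in replicate 2. Mfn1-210, a retained-intron model of 246 bases, held 20.3% and 31.7% on 34.5 and 51.7 counts, which were 1.26% and 2.21% of the gene's counts. Mfn1-208, a retained-intron model of 344 bases, held 11.1% and 7.12%. Together the transcripts under 400 bases took 31.3% of the TPM of Mfn1 in replicate 1 and 38.8% in replicate 2, from 2.41% and 3.04% of its counts. Without them Mfn1 had 27.8 and 33.7 TPM, a mean of 30.8 ± 4.14 in place of 47.8 ± 10.3. The ratio of Opa1 to Mfn1 then turned from -0.37 to 0.26 ± 0.0835 on the log2 scale of TPM, with their libraries overlapping before and after. That of Mfn1 to Mfn2 went to -0.88 ± 0.254, with both libraries of Mfn1 now below both of Mfn2. With coding transcripts alone these log2 ratios were 0.33 ± 0.0854 and -1.02 ± 0.106.

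Mfn2 used nearly equal amounts of Mfn2-204 and Mfn2-201, whose order changed between the libraries. Mfn2-204 held 54.0% of TPM in replicate 1 and 47.7% in replicate 2, and Mfn2-201 held 41.7% and 48.0%. Both are annotated with a coding sequence of 2271 bases, and Mfn2-201 has 20 exons where Mfn2-204 has 19. In Opa1, Opa1-206 led with 51.5% and 59.9%, followed by Opa1-207 with 31.5% and 27.7%. Opa1-201 had 10.6% in replicate 1, from 301 counts, and was listed at 0 in replicate 2.

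The Opa1 transcripts differ in cassette exons, shown as the coding segments that the other forms have and Opa1-206 lacks. The models also differ at their ends, with 6230 bases in Opa1-206, 3153 in Opa1-207 and 3230 in Opa1-201, and the coding sequence of Opa1-207 is annotated without a stop codon. As background, the proteases OMA1 and YME1L cut the protein in the region of these exons. Which cleavage sites each form carries was not examined. The exons are given on the plus strand of mm10, wholly in lower case since no part is singled out. The first, of 54 bases (18 codons) at chr16:29588823-29588876, is in Opa1-201 and not in Opa1-206. The second, of 111 bases (37 codons) at chr16:29597586-29597696, is in Opa1-207 and not in Opa1-206. Both lengths are multiples of 3, so each exon keeps the reading frame.

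Opa1-201 exon: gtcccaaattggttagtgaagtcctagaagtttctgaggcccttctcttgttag

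Opa1-207 exon: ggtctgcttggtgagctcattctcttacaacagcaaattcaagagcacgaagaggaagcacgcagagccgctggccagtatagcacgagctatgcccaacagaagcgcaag

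The fission genes spanned the widest gap. Fis1 (ENSMUSG00000019054.9, plus strand of chromosome 5, 136953275 to 136966234), an outer membrane adaptor, had 210 TPM in replicate 1 and 206 TPM in replicate 2, the highest of the 10 genes in both. Dnm1l (ENSMUSG00000022789.10, minus strand of chromosome 16, 16312230 to 16358959), the fission dynamin, had 48.0 and 57.2 TPM. In TPM, Fis1 stood 3.97-fold above Dnm1l (log2 ratio of Dnm1l to Fis1 -1.99 ± 0.198). As counts without length the order was reversed, with a log2 ratio of 0.52 ± 0.197, since Dnm1l has an average model length of 4027 bases in replicate 1 and Fis1 of 790. The libraries of Dnm1l overlapped those of Mfn2 and Mfn1, and lay above both of Opa1 (log2 ratio of Opa1 to Dnm1l in TPM -0.52 ± 0.101).

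Fis1 was made up almost wholly of Fis1-201, which held 92.4% and 92.5% of its TPM. In Dnm1l, Dnm1l-201 held 79.8% in replicate 1 and 85.5% in replicate 2. Dnm1l-203 held 15.3% and 9.78%, and Dnm1l-202 held 4.91% and 4.75%. Among the differences of these transcripts are short coding exons whose lengths are multiples of 3, shown because such exons insert residues into DRP1, the first into its GTPase domain and the others into its variable domain. All lie on the minus strand of mm10: 39 bases (13 codons) at chr16:16342697-16342735, 78 bases (26 codons) at chr16:16318764-16318841, and 33 bases (11 codons) at chr16:16318445-16318477. The exons were read from the later annotation, in which all 3 models of Dnm1l differ in total length from those of the tables. There Dnm1l-203 also has a noncoding exon of 35 bases, and its annotated coding sequence of 587 codons is shorter than the 699 of Dnm1l-201, so it is not Dnm1l-201 with inserts alone.

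Dnm1l-202 exon: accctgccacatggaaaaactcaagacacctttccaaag

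Dnm1l-203 exon of 78 bases: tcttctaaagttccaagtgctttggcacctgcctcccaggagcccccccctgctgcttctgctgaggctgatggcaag

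Dnm1l-203 exon of 33 bases: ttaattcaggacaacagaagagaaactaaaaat

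**Figure D2:**
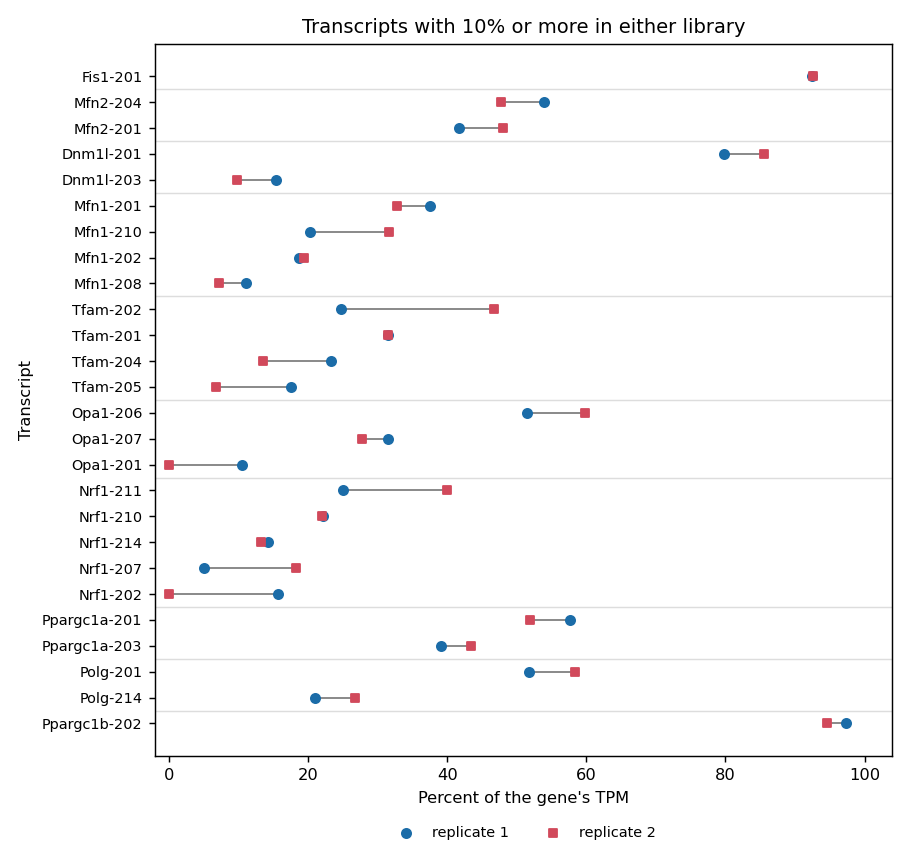
Percent of the gene's TPM held by each transcript that reached 10% in either library, with a circle for replicate 1 and a square for replicate 2 joined by a line. Fis1-201, Ppargc1b-202 and Dnm1l-201 each hold over 79% in both libraries, whereas the leading transcripts of Mfn2 and of Tfam exchange places.

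Over the 10 genes, 26 of 81 transcripts reached 10% of their gene's TPM in either library. For 8 genes both libraries had the same leading transcript, with Mfn2 and Tfam as the others. It held over 50% of TPM in both libraries for 6 genes: Fis1, Ppargc1b, Dnm1l, Opa1, Ppargc1a and Polg. The share of TPM in protein-coding transcripts was 100% for Mfn2 and Dnm1l in both libraries. That share was 58.3% and 60.1% for Mfn1, 57.0% and 58.4% for Polg, and 39.0% and 44.6% for Ppargc1a. Retained-intron transcripts took 41.7% and 39.9% of Mfn1 and 37.7% and 39.0% of Polg by TPM, but 6.47% and 3.60% of Mfn1 and 17.2% and 17.5% of Polg by counts.

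**Figure D3:**
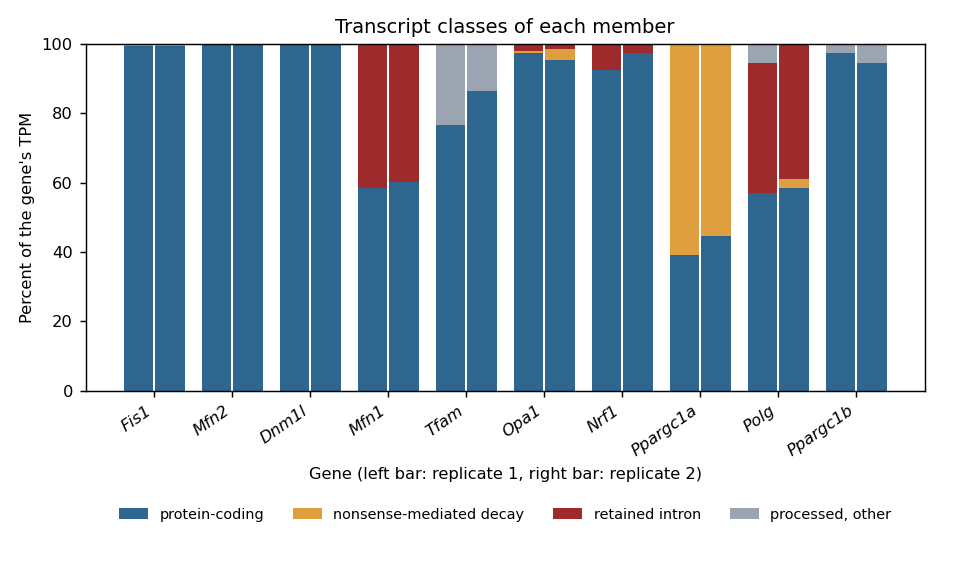
Percent of each gene's TPM by annotated transcript class, with replicate 1 on the left and replicate 2 on the right of each pair of bars. Protein-coding transcripts fill the bars of Mfn2 and Dnm1l, retained-intron transcripts hold 41.7% and 39.9% of Mfn1, and the class of nonsense-mediated decay holds 61.0% and 55.4% of Ppargc1a.

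Differences of the 10 genes between the pools stayed under 2-fold. In TPM, Fis1 and Nrf1 were higher in replicate 1 and the other genes in replicate 2. By scaled counts Nrf1 was 1.04-fold higher in replicate 2 instead. The median protein-coding gene tested differed by 0.02 on the log2 scale of scaled counts. The share of all genes higher by TPM was not counted, so the directions are not read as a trait of the 10 genes. Expected counts were compared gene by gene with an exact two-sided binomial test against library sizes scaled by TMM, with Benjamini-Hochberg adjustment over 16621 genes. This test compares 2 libraries of the same group and covers counting error only. At an adjusted p under 0.05, 6 of the 10 genes were higher in replicate 2 and none was higher in replicate 1. The share over all genes tested was 39.6%, made up of 21.2% higher in replicate 2 and 18.4% higher in replicate 1. When a fold of 2 or more was also required, none of the 10 genes was called, against 4.69% of all genes tested. In size, 6 of the 10 differed by more than the median protein-coding gene tested (0.17 on the log2 scale, without sign). These backgrounds were not matched for counts. Genes called fell from 779 to 194 at a summed count of at least 100, so most calls lay in genes of low count. The lowest of the 10 genes, Ppargc1b, had 988 counts in replicate 1 and 722 in replicate 2. Whether the 10 genes differed more or less than genes of like counts was not tested.

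Mfn2 showed the largest difference of the 10. It had 5289 counts in replicate 1 and 5821 in the less deeply sequenced replicate 2, which is 1.51-fold higher in replicate 2 after scaling (exact binomial test, adjusted p = 3.863e-101). Of the protein-coding genes tested, 10.7% differed more. Opa1 followed at 1.32-fold (exact binomial test, adjusted p = 3.79e-33), then Polg at 1.24-fold (adjusted p = 5.22e-07 by the exact test). Mfn1 was 1.17-fold higher, Dnm1l 1.15-fold and Ppargc1a 1.13-fold, with adjusted p of 2.52e-07, 6.34e-11 and 3.71e-05 by the exact binomial test. Fis1 (adjusted p = 0.0701), Tfam (0.0615), Nrf1 (0.439) and Ppargc1b (1) did not pass this exact test. Mfn1, Mfn2, Opa1 and Dnm1l were thus higher in replicate 2, as were 21.2% of all genes tested, while Fis1 was 1.05-fold higher in replicate 1. The 12 listed partners of fusion, given below, did not share a direction. At an adjusted p under 0.05 by the exact binomial test, 2 of them were higher in replicate 2 and 1 in replicate 1. Their median was 41.4 TPM in replicate 1 and 40.2 TPM in replicate 2. Summed red blood cell (70184 and 58861 TPM) and liver markers (145 and 25.4 TPM) were lower in replicate 2, as were macrophage markers. Summed markers of the other sets were higher there, by 1.18-fold for endocardium and endothelium, 1.16-fold for cushion mesenchyme and fibroblasts, and 1.07-fold for cardiomyocytes. Some markers went against their set, such as Slc4a1 of red blood cells (74.9 and 82.7 TPM) and Ttn of cardiomyocytes (441 and 278 TPM). The part of these marker sets in the differences was not tested.

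**Figure D4:**
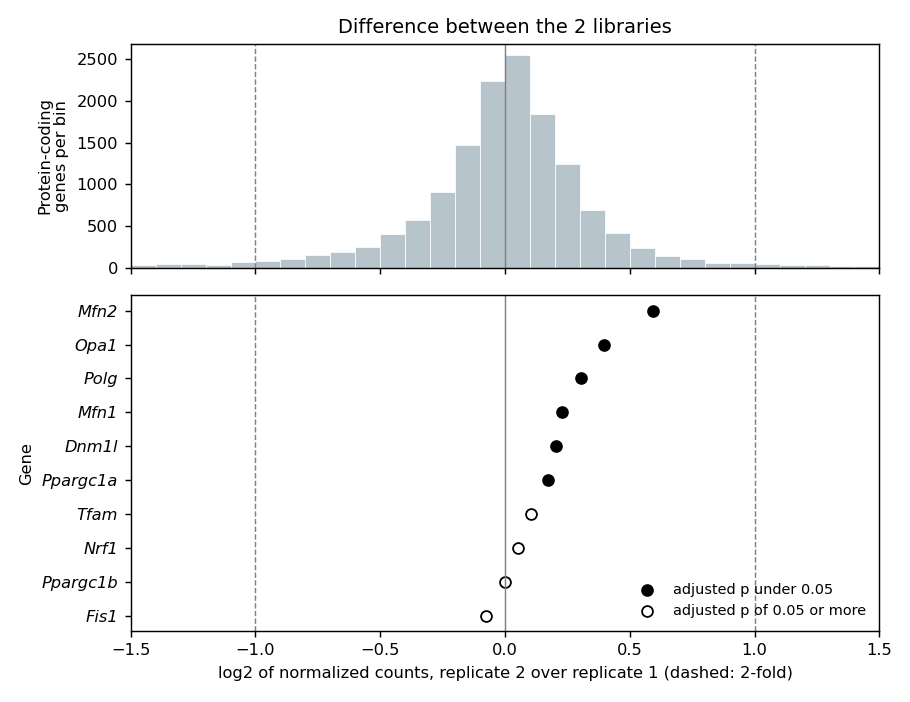
Difference between the libraries as log2 of normalized counts in replicate 2 over replicate 1, for all tested protein-coding genes as a histogram (upper panel; genes beyond the axis are not drawn) and for each of the 10 genes as a point (lower panel). All 10 points lie inside the dashed lines of 2-fold, from -0.08 for Fis1 to 0.59 for Mfn2, and the filled points are the 6 genes with an adjusted p under 0.05.

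Promoter sequence of RefSeq (GRCm38.p6, 250 bases before to 50 bases after each start) was matched by symbol for 9 of the 10 genes, with 14 promoters in all, and searched on both strands for motifs of the factors that act on this pathway. The motif CCGGAAGT of GABP, also called nuclear respiratory factor 2, was present in 5 of the 14 promoters (35.7%), those of Fis1 (at a pair of its starts), Mfn1, Polg and Tfam. Of all 32851 promoters 3.89% held it, and of the 12299 promoters of detected protein-coding genes 7.94% did. The core CGCATGCG of the NRF1 motif was found in Opa1 alone, beside 1.87% of all promoters and 3.85% of those of detected genes. The CREB motif TGACGTCA and the motif TCAAGGTCA of the estrogen-related receptors were not found in these windows, beside 1.79% and 0.423% of all promoters. None of these motifs contains another. A match describes the letters and shows no binding.

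The matches are shown with 20 bases on either side, in the direction of transcription and with the motif in capitals so that the surrounding letters can be compared. They begin 47 bases before the RefSeq start in Tfam, 38 in Polg, 44 in Mfn1, 18 in Fis1 and 58 in Opa1. These starts need not be those of the GENCODE coordinates given above. By the latter, Tfam starts at 71238280 and Polg at 79466362 on the minus strand, so both of these matches lie inside the gene. The match at the other start of Fis1 lies after that start and is not shown. The windows lie at chr10:71238064-71238111 on the minus strand (Tfam), chr7:79466284-79466331 on the minus strand (Polg), and on the plus strand at chr3:32529418-32529465 (Mfn1), chr5:136953237-136953284 (Fis1) and chr16:29579256-29579303 (Opa1).

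Tfam, GABP motif: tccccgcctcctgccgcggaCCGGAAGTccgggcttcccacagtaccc

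Polg, GABP motif: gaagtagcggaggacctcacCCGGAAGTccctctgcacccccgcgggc

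Mfn1, GABP motif: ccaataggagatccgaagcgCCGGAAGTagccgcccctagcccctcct

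Fis1, GABP motif: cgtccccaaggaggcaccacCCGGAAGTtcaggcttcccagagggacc

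Opa1, NRF1 motif: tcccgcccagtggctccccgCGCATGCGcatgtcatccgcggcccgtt

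The factors themselves were measured. Gabpa, the DNA-binding subunit of GABP, had 25.6 TPM in replicate 1 and 30.7 TPM in replicate 2, and Gabpb1, its activating partner, had 30.6 and 29.8 TPM. These levels lay near that of Nrf1 (32.6 and 29.4 TPM).

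Partners of the 10 genes were taken from 8 lists with 112 distinct measured genes, of which 102 were detected. Of the 111 tested between the libraries, 48 passed an adjusted p of 0.05: 29 were higher in replicate 2 and 19 in replicate 1. That is 43.2%, near the 39.6% of all genes tested. At 2-fold, 2 were called, next to 4.69% of all genes tested. The shares of all genes tested were not matched for counts here either. Among 21 regulators of biogenesis, 19 were detected, with a median of 19.7 ± 1.46 TPM. The corepressor Ncor1 was the highest (109 and 94.0 TPM), followed by Hcfc1 (38.1 and 31.4), the AMP-activated kinase subunit Prkaa2 (28.5 and 36.3) and the PGC-1-related coactivator Pprc1 (33.6 and 27.1). Pprc1 was 2.93-fold above Ppargc1b, so that Ppargc1b was the lowest of the 3 coactivators of this family. Of the estrogen-related receptors that bind PGC-1alpha, Esrrg (25.0 and 26.8 TPM) was 4.92-fold above Esrra (5.81 and 4.76 TPM). The lowest of the list was Perm1, a muscle regulator induced by PGC-1alpha, at 0.53 and 0.43 TPM. Pparg, at 49 and 17 counts, was called 2.06-fold higher in replicate 1 (exact binomial test, adjusted p = 0.0241).

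Genes of mitochondrial DNA replication and nucleotide supply had the lowest median of the lists, 11.2 ± 0.318 TPM, with 15 of 16 measured members detected. Mpv17, also on the list, was not analysed here. The single-stranded DNA-binding gene Ssbp1 (80.9 and 78.6 TPM) and Atad3a (62.2 and 65.4) led, followed by Dguok (33.3 and 38.5) and Endog (22.1 and 24.7), and Tymp was lowest (1.06 and 0.66). Polg (15.9 TPM) lay above this median and Tfam (46.8 TPM) below only the leading pair. All 14 genes of mitochondrial transcription and RNA were detected, with a median of 21.1 ± 2.61 TPM, led by Slirp (213 and 189), Lrpprc (45.9 and 53.5), Fastkd2 (47.0 and 44.1) and Mterf3 (40.2 and 34.7). Mterf1b was lowest at 1.77 and 1.94 TPM, and its reads may be shared with its close copy Mterf1a. The factors related to rRNA methylases, Tfb1m (15.3 and 15.5 TPM) and Tfb2m (22.5 and 15.1 TPM), overlapped.

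Partners of fusion had a median of 40.8 ± 0.859 TPM, close to that of the 10 genes, with 11 of 12 detected. The prohibitins Phb2 (246 and 248 TPM) and Phb (195 and 215), and Stoml2 (188 and 186), which support OPA1 in the inner membrane, were the highest, followed by the protease Parl (58.3 and 58.5). Pld6 was the lowest (0.9 and 1.23). Of the proteases that cut OPA1, Yme1l1 (45.8 and 43.0 TPM) was 2.85-fold above Oma1 (14.6 and 16.7 TPM), and Opa1 was 2.35-fold above Oma1. The 11 genes of cristae organisation, most of them in the MICOS complex, had the highest median of the lists, 106 ± 1.89 TPM. Its leading members Minos1 (494 and 479 TPM), Immt (200 and 207), 2410015M20Rik (146 and 145) and Chchd3 (134 and 130) all lay above both libraries of Opa1 (31.9 and 41.9 TPM), while Chchd6, the lowest (33.3 and 33.7 TPM), overlapped it.

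Partners of fission ranged from 0.25 to 165 TPM in the mean, with a median of 15.4 ± 0.163 TPM and 11 of 13 detected. Mff, the main receptor that brings DRP1 to the outer membrane, had 162 and 168 TPM, below Fis1 by 1.26-fold in TPM, with no overlap. As counts without length Mff was above Fis1 (log2 ratio 0.70 ± 0.0817). Mtfr1l (122 and 130 TPM), the ubiquitin ligase gene March5 (68.1 and 72.4) and the dynamin Dnm2 (44.6 and 48.6) came next. The adaptors Mief1 (15.8 and 18.7) and Mief2 (10.6 and 13.6) were far lower, Mief1 standing 1.43-fold above Mief2. Of the adaptors for DRP1, the order was thus Fis1, Mff, Mief1 and Mief2. Dnm2 overlapped Dnm1l (log2 ratio of Dnm1l to Dnm2 0.17 ± 0.0887). Gdap1, the lowest, had 8 and 27 counts and was called 4.43-fold higher in replicate 2 (exact binomial test, adjusted p = 0.000226).

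The transport and removal of mitochondria completed the lists. Transport genes, 8 of 11 detected, had a median of 23.2 ± 2.72 TPM. The highest were the kinesin Kif5b (132 and 117 TPM), Mtus1 (63.2 and 67.5), Armcx3 (59.0 and 69.1) and Rhot1 (43.6 and 47.1). Rhot1 was 5.80-fold above Rhot2, and the adaptor Trak2 was 2.35-fold above Trak1. The anchor Snph was the lowest, at 0.23 and 0.55 TPM. Of 15 mitophagy genes 14 were detected, and the median was 29.5 ± 2.15 TPM. The receptors Bnip3l (373 and 340 TPM) and Bnip3 (225 and 234) led together with Phb2, which is also on the fusion list, and Fkbp8 (156 and 149). Bnip3l was 1.55-fold above Bnip3 in TPM, an order that turned in counts without length (log2 ratio of Bnip3 to Bnip3l 0.24 ± 0.031). The kinase Pink1, which accumulates on damaged mitochondria, had 16.8 TPM in replicate 1 and 22.8 TPM in replicate 2. Calcoco2 was listed at 0 in both libraries.

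**Figure D5:**
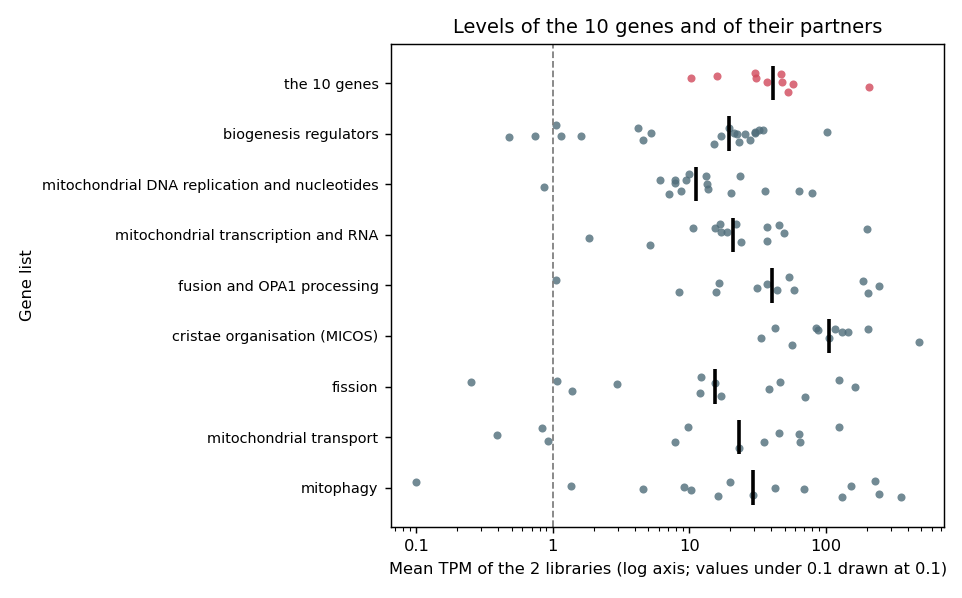
Mean TPM of the 2 libraries on a log axis for the 10 genes and for each list of partners, 1 point per gene, with a black bar at the list's median and a dashed line at 1 TPM. The 10 genes run from 10.3 to 208 TPM with a median of 40.9 TPM, the cristae list has the highest median (106 TPM) and the DNA replication list the lowest (11.2 TPM).

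Of 24 gene pairs compared in TPM, 19 were apart in both libraries (79.2%), against 94.1% of all pairs of detected protein-coding genes. The pairs that overlapped were Mfn1 with Mfn2, Opa1 with Mfn1, Nrf1 with Ppargc1a, Tfb1m with Tfb2m, and Dnm1l with Dnm2. Within each library, Mfn1 nevertheless lay below Mfn2 (log2 ratios -0.16 and -0.36) and Opa1 below Mfn1 (-0.35 and -0.39). Dnm1l lay above Dnm2 in each (0.11 and 0.23). The ratios of Nrf1 to Ppargc1a (0.19 and -0.12) and of Tfb1m to Tfb2m (-0.55 and 0.03) changed sign. Against Tfam, Nrf1 was 1.51-fold lower in TPM with no overlap, but by counts without length the log2 ratio of Nrf1 to Tfam was -0.03, in place of -0.59.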

How the data were processed

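Total RNA of E11.5 hearts was measured in 2 libraries of 1 group. Per the labels, the mirVana kit was used, spike-in RNAs were included and a SmartSeq protocol was attached. The authors deposited, per gene and transcript, expected counts (estimated reads), TPM, posterior mean TPM, and the percent of a gene's TPM in each transcript. The deposited interval bounds of TPM, a signal of unstated level, were not used. The deposited README texts name mm10 and annotation M4. For aligner, quantifier and strand setting, the status is: not given in the sources used here. Short transcripts gain TPM, since a few reads count for much in them.

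Symbols, types, coordinates and exons came by identifier from GENCODE M21 on GRCm38 (42462 of 43346 genes matched, 98.0%). Of 81 transcripts of the 10 genes, 65 had the same length in both releases. The 10 genes, the lists and the tests were chosen with earlier results of these data known. The genes named are the 10 genes and, of each list, the 4 highest, the lowest and the fixed partners, with list genes called between libraries. A single partner, counted in its list, is not reported here. Gabpa and Gabpb1 were named in addition, for their motif. The NRF1 motif was shortened to its core after a first search with a longer form, which also matched Opa1 alone.

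Levels are the mean and SD of TPM, with detection at 1 TPM in both libraries. Expected counts were rounded, and genes whose counts summed to 20 or more each got an exact binomial test (two-sided) of replicate 2 against replicate 1 on TMM sizes (edgeR 4.0.16, R 4.3.3), adjusted by Benjamini-Hochberg. Calls needed a fold of 2, computed with 0.5 added to each count, besides an adjusted p under 0.05. Size factors of DESeq2 1.42.0 served as an alternative. Expected counts totalled 37617442 in replicate 1 and 27642765 in replicate 2. The binomial test was tried on simulated counts that held counting error alone, which is the error it assumes. That trial therefore says nothing of how the test behaves under other spread between libraries. In the real libraries the mean chi-square per gene of observed against expected counts was 24.8, more than counting error alone gives. Python 3.11.15 with pandas 2.3.3 and scipy 1.17.1 was used.

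That the libraries are biological replicates rests on the labels. The SD and p-values measure only the spread between these 2 libraries, or counting error, which may be technical.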

Additional observations from a re-analysis of the deposited data

How the results depend on the processing

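The median of the 10 genes (40.9 TPM) became 56.7 TPM when TPM was rescaled over nuclear protein-coding genes alone, a scaling that moved all 10 genes upward, and 41.6 TPM with posterior means. It ranged from 36.6 to 45.3 over the single libraries. All 10 genes were detected at 0.5, 1 and 5 TPM, with posterior means and in each library alone, and the listed partners detected went from 90 at 5 TPM to 108 at 0.5 TPM. Pairs of the 10 genes that were apart numbered 36 with posterior means and without transcripts under 400 bases, and 40 as counts without length. The genes called between the libraries went from 779 to 194 at a summed count of at least 100, 1141 at a count of at least 1, 1498 at a fold of 1.5, 778 with DESeq2 size factors and 787 with total counts. At the fold of 1.5, 1 of the 10 genes was called (Mfn2), and none under the other 4 settings. Fis1 passed an adjusted p of 0.05 in 1 of 5 settings (0.0473 at the lowest). The other 9 genes kept their side of 0.05 in all 5, although the fold of 1.5 leaves the adjusted p unchanged and so could not move a gene. Counts without length turned the sign of 5 of 24 pairs: Dnm1l to Fis1 (0.52), Mff to Fis1 (0.70) and Bnip3 to Bnip3l (0.24, all log2), which were apart in TPM, and Opa1 to Mfn1 (0.68) and Nrf1 to Ppargc1a (-0.68), which were not. They moved 14 pairs by over 1.5-fold, among them Tfam to Polg (1.56 to 0.50) and Polg to Polg2 (1.37 to 2.65). Coding transcripts alone moved 4 of 9 pairs that far. Both libraries had the same leading transcript for 7 genes by posterior mean share and for 9 by counts. The sums over coding transcripts and over transcripts of 400 bases or more, and the shares of counts, were chosen after seeing the data. No paired comparison of groups was possible because there is 1 group. Opa1-201 and Nrf1-202, listed at 0 in replicate 2, had 1.19% and 3.16% there by posterior means.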
